A study of Saccharomyces cerevisiae with 2 samples.

Results

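The genes of ribonucleotide reductase and its best known regulators of the budding yeast Saccharomyces cerevisiae were followed in 2 strains. The set holds 8 genes, taken by locus name from the 7163 features of the deposited expression table. They are RNR1 (YER070W) and RNR3 (YIL066C) for the large subunit, RNR2 (YJL026W) and RNR4 (YGR180C) for the small subunit, SML1 (YML058W) and HUG1 (YML058W-A) for protein inhibitors, RFX1 (YLR176C) for a transcriptional repressor, and DUN1 (YDL101C) for a checkpoint kinase. The strains are MF02, labelled as wild type, and UV02_HG, whose genotype the labels give by name alone. Both grew with 40% (w/v) glucose and were harvested in the middle of exponential growth. The series title speaks of tolerance to high glucose, and the comparison it implies is UV02_HG against MF02.

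Ribonucleotide reductase makes the deoxyribonucleotides from which DNA is built, by reducing ribonucleotides. In yeast the large subunit Rnr1 carries the active site and the allosteric sites, and the small subunit is a pair of Rnr2, which holds the iron centre and the radical, with Rnr4, which is needed to form that centre. Rnr3 is another large subunit, kept scarce unless DNA is damaged. Sml1 binds Rnr1 and Hug1 binds the small subunit, and both inhibit the enzyme. When replication stalls or DNA breaks, the kinases Mec1 and Rad53 activate Dun1, which marks Sml1 for destruction and releases the repressor Rfx1 (also called Crt1) from the X-boxes of its target promoters. Rfx1 represses through the Tup1-Cyc8 corepressor. RNR1 is known as a target of MBF, the factor that binds the MCB element and drives transcription at the start of S phase.

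The promoters of the set differ in these elements, and the stretches below are shown because they hold the elements that these regulators are known to bind. They are letters of the S288C reference genome R64 (NCBI RefSeq), not of the strains sequenced here. 3 elements were searched on both strands in the 500 bases before the start codon, the MCB element ACGCGT, which reads the same on both strands, the SCB element CGCGAAA, and GTTGCCA, a part of the X-box. Capitals mark the matches, and TGGCAAC is GTTGCCA read from the other strand.
RNR1: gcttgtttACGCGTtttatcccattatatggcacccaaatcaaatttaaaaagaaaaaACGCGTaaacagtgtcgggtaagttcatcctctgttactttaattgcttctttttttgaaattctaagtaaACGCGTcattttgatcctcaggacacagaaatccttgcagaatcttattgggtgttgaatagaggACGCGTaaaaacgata
RNR3: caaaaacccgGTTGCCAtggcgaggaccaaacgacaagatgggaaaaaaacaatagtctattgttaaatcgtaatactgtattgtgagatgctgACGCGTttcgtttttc
RNR2: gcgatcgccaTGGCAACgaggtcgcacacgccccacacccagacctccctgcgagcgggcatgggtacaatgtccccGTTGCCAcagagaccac
RNR4: ggcgttgttgTGGCAACaccatcctct
DUN1: acgtgacgcgACGCGTttgtttactt

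In R64 these stretches lie at chrV:298450-298659 (plus strand, RNR1), chrIX:240880-240989 (minus strand, RNR3), chrX:391960-392053 (plus strand, RNR2), chrVII:856672-856698 (minus strand, RNR4) and chrIV:281996-282021 (minus strand, DUN1). RNR1 held 4 MCB matches, which no other of 6019 promoters of protein-coding genes did. RNR3 held 1 MCB match and 1 X-box match, RNR2 held 2 X-box matches, RNR4 held 1 X-box match and DUN1 held 1 MCB match. Among all 6019 promoters, 5.40% held an MCB match, 4.82% an X-box match and 0.216% both. The SCB element was in 5.80% of promoters and in 0 of the 8. The windows before SML1, HUG1 and RFX1 held no exact match of these elements. Only exact copies were searched, so other forms of the elements would be missed in any window. No 2 matches overlapped in the set. A match is a description of the reference letters, and no binding was measured here.

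Expression is given as FPKM, fragments scaled by gene length and by library size, in 2 columns per strain. The series' design text speaks of duplicates, but the labels list 1 sample per strain and do not say whether the columns are separate cultures. Both columns were therefore treated as runs of that sample, each strain value is their mean, and no p-value was computed. The spread between columns may be technical or may lie between cultures. The columns rested on 12507299 to 15144991 reads, and the deposited values converted to whole reads for all 8 members with the R64 coding lengths. The members had 62 reads (RNR3, UV02_HG column 1) to 12576 reads (SML1, UV02_HG column 1). To form a strain ratio, 1 was added to each mean FPKM, the UV02_HG value was divided by the MF02 value and log2 was taken, and 2-fold refers to that scale. All 8 members passed the filter of at least 1 FPKM in either strain, as did 6291 features in all, whose median log2 ratio was -0.89.

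The small subunit genes were lower in UV02_HG, and the inhibitor gene HUG1 was higher. RNR4 was 4.85-fold lower, RNR1 3.55-fold, RNR2 3.13-fold and RFX1 2.23-fold, while HUG1 was 2.37-fold higher. Thus 4 of the 8 were at least 2-fold lower, where 47.2% of all features were, and 1 was at least 2-fold higher, where 14.7% of all features were. Both UV02_HG columns lay below both MF02 columns for 6 members (56.4% of all features) and above them for HUG1 (20.7% of all features). SML1 was the member whose columns overlapped. The 2-fold counts of the set are close to these backgrounds. RNR4 alone was at least 2-fold lower whichever UV02_HG column was set against whichever MF02 column (4 pairings).

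**Figure D1:**
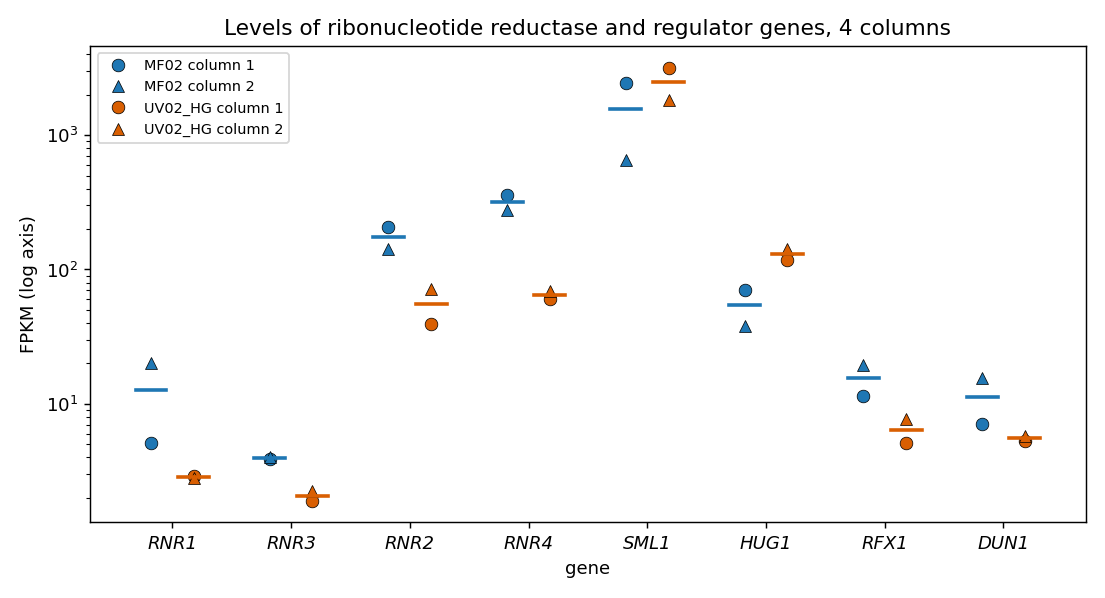
FPKM of the 8 genes on a log axis, with circles for column 1, triangles for column 2 and bars for the mean of each strain's columns (MF02 blue, UV02_HG orange). RNR4 and RNR2 lie well apart between strains, RNR1 parts widely between the MF02 columns (5.10 and 20.2), and the SML1 columns of the strains overlap.

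The strain ratio followed gene length, which matters for a set that runs from 207 nt (HUG1) to 2667 nt (RNR1). Genes of up to 300 nt had a median log2 ratio of 1.25 (n = 271), those above 1000 and up to 1500 nt had -1.27 (n = 1272) and those above 2400 and up to 3000 nt had -1.48 (n = 379). Each member was therefore also set against the median of itself and the 200 genes nearest to it in coding length. On that scale RNR4 was at -1.31, RNR1 at -0.36, SML1 at -0.30, RNR2 at -0.25, HUG1 at 0.00, RFX1 at 0.41, DUN1 at 0.76 and RNR3 at 0.81 (log2). Only RNR4 passed 2-fold, on the low side, as did 16.8% of the 5695 genes with a coding length, and 0 members passed on the high side, as did 17.1% of those genes. The set's median was -1.03 as deposited and -0.13 relative to length, against -0.89 for all features and 0 for all genes relative to length. How much of each raw ratio belongs to the length trend was not tested.

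**Figure D2:**
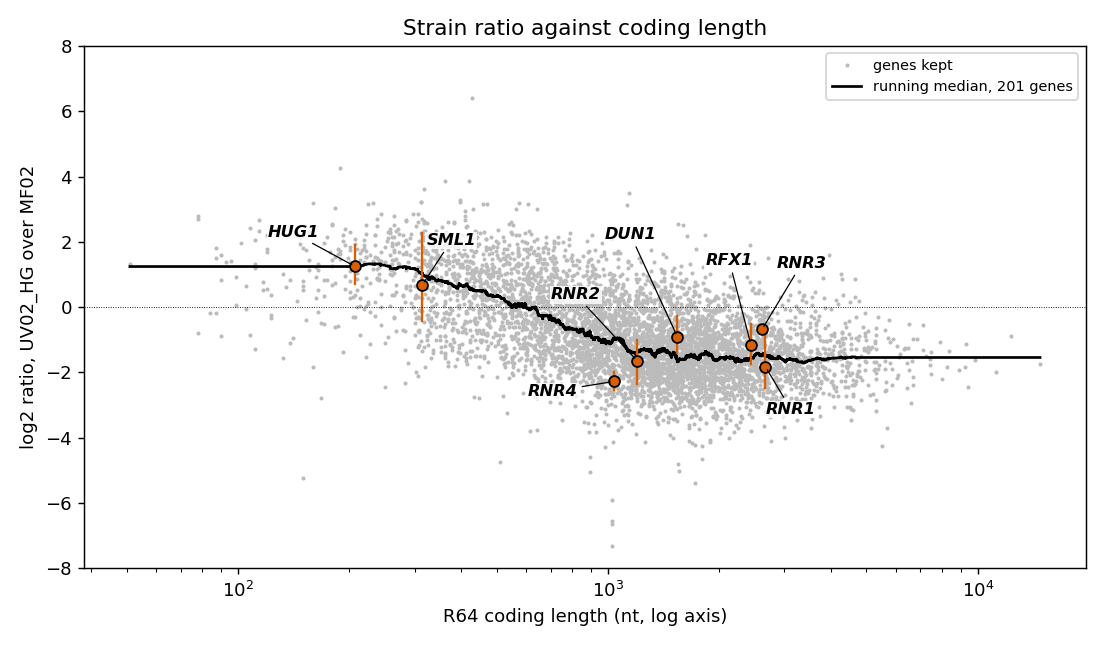
Log2 ratio of UV02_HG over MF02 against R64 coding length (log axis) for the genes kept, with the running median of each gene and its 200 nearest in length in black. Orange points are the 8 members and their vertical lines span the 4 single-column comparisons. HUG1 sits on the running median and RNR4 lies 1.31 below it.

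The small subunit genes were the most abundant parts of the enzyme. RNR4 stood at 358 and 277 FPKM in the MF02 columns and at 60.5 and 68.9 FPKM in the UV02_HG columns. The strains did not overlap, and the columns of each strain lay within 1.3-fold of each other. The 4.85-fold deficit ran from 3.98-fold to 5.84-fold over the column comparisons. Of the 200 other genes nearest in length to RNR4 (1008 to 1074 nt), 29 had a lower ratio and 171 a higher one. With MF02 column 2 alone, the length-relative value of RNR4 was -0.85, under 2-fold.

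RNR2 stood at 207 and 143 FPKM in the MF02 columns against 39.4 and 71.1 in the UV02_HG columns. Again the strains did not overlap, but the UV02_HG columns were 1.80-fold apart. The 3.13-fold deficit ran from 1.998-fold to 5.14-fold. Of the 200 genes nearest to RNR2 in length, 81 had a lower ratio. By strain means its deficit thus lay near the middle of genes of about its length. Its length-relative value ran from -1.37 to 0.57 over the column pairings, so that place is not fixed. Within a column the ratio of RNR4 to RNR2 does not depend on the scaling between columns, and both genes are of like length. It was 1.73 and 1.93 in MF02 and 1.53 and 0.969 in UV02_HG. RNR4 thus exceeded RNR2 in both MF02 columns and in UV02_HG column 1, and in UV02_HG column 2 the genes were nearly level.

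The large subunit genes were weak beside them. RNR1 had 5.10 and 20.2 FPKM in the MF02 columns against 2.91 and 2.79 in the UV02_HG columns. These values rest on 174 and 817 reads in MF02 and on 97 reads in each UV02_HG column, with an exact 95% Poisson interval of 78.7 to 118 for the latter, which covers counting error only. The MF02 columns were 3.97-fold apart, farther than the strains are by MF02 column 1 alone, where the log2 ratio was -0.66. The fold ran from 1.56 to 5.6 over the column comparisons. Relative to length, RNR1 lay at -0.36, with 75 of its 200 length neighbours lower. Genes above 2400 and up to 3000 nt also differed between the MF02 columns, with a median log2 ratio of 1.24 for column 2 over column 1, and RNR1 stood at 1.80 on that scale.

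RNR3 had 3.86 and 4.0 FPKM in the MF02 columns against 1.90 and 2.23 in the UV02_HG columns. Its columns did not overlap between strains and it was 1.61-fold lower (1.5 to 1.72), the narrowest range in the set. Although RNR3 is nearly as long as RNR1, its MF02 columns differed by 1.03-fold. Its read numbers were 129, 158, 62 and 76 in the 4 columns. Relative to length it stood at 0.81, with 162 of 200 length neighbours lower. That value was 0.74 with a pseudocount of 0.1, 0.0308 with MF02 column 1 alone and 1.25 with MF02 column 2 alone, so it depends on the MF02 column. The table also lists YIL066W-A and YJL026C-A, which carry the numbers of RNR3 and RNR2, and their values were 0 in every column except 0.180 FPKM for YIL066W-A in UV02_HG column 1. These IDs have no entry in the R64 annotation used, so whether they take reads from RNR3 or RNR2 was not tested. No R64 gene overlaps any of the 8 members. Overlap with other features of the table that lack an R64 entry was not tested.

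The ratio of RNR3 to RNR1 within a column was 0.758 and 0.198 in MF02 and 0.653 and 0.801 in UV02_HG. The low value belongs to MF02 column 2, where RNR1 was high, and the other 3 columns lay close together. RNR3 was below RNR1 in all 4 columns. The summed small subunit FPKM over the summed large subunit FPKM was 63.1 and 17.3 in MF02 and 20.8 and 27.9 in UV02_HG. The UV02_HG values fell between those of the MF02 columns, so no difference between strains in this balance can be read. Small and large subunit genes differ in length, and the part of the length trend in this ratio was not tested.

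**Figure D3:**
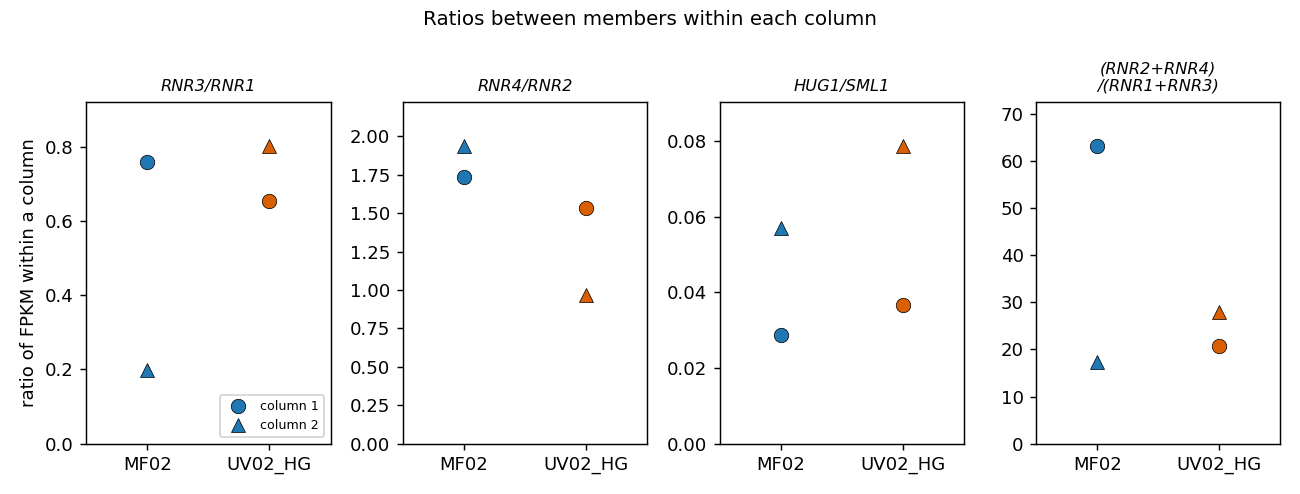
Ratios of FPKM within each column for RNR3/RNR1, RNR4/RNR2, HUG1/SML1 and small over large subunit genes, each on its own axis from 0 (circles column 1, triangles column 2, MF02 blue, UV02_HG orange). In the RNR4/RNR2 panel alone the strains do not overlap, with 1.73 and 1.93 in MF02 against 1.53 and 0.969 in UV02_HG. The nearest columns, column 1 of each strain, differ by only -0.18 in log2, less than the UV02_HG columns differ from each other. How often other gene pairs part this way was not tested.

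The inhibitor genes lie side by side on chromosome XIII, in the same direction, with 416 nt between the end of HUG1 and the start of SML1 in R64. SML1 was by far the most abundant member. It had 2464 and 659 FPKM in the MF02 columns against 3192 and 1816 in the UV02_HG columns, rank 151 and rank 153 of 6291 features by strain mean. The strains overlapped, since MF02 column 1 exceeded UV02_HG column 2. The log2 ratio was 0.68 and ran from -0.44 to 2.27, so not even its direction held across columns. The MF02 columns of SML1 were 3.74-fold apart, column 1 being the higher, the opposite order to RNR1. The log2 value of MF02 column 2 over column 1 was -1.90 for SML1, against a median of -0.37 over the 572 genes above 300 and up to 500 nt, so short genes in general were lower in column 2 and SML1 more so.

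HUG1 had 70.6 and 37.6 FPKM in the MF02 columns against 117 and 143 in the UV02_HG columns. All UV02_HG values were above the MF02 values, and the 2.37-fold excess ran from 1.65-fold to 3.72-fold. HUG1 itself was the median of its length window (105 to 267 nt), with 100 genes below and 100 above, so its excess is that of the middle gene of that length. Between HUG1 and SML1 the ratio was 0.0286 and 0.0571 in MF02 and 0.0367 and 0.0785 in UV02_HG, which overlap. HUG1 thus stayed a small fraction of its neighbour in both strains.

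Around these genes the chromosome was high for its length. The 10 nearest expressed genes of SML1 had a median of 0.87 relative to length, and chromosome XIII had 0.37 (456 genes). SML1, at -0.30, lay below all 10 of them, but the lowest was at -0.25. Its own value ran from -1.26 to 1.13 over the column pairings, so that place is not fixed. On the outer side of HUG1, NTE1, a phospholipase gene, had a log2 ratio of -0.73 and 0.82 relative to length. Beyond SML1, CMP2, a calcineurin subunit gene, had -1.69 and -0.25. RNR4 lay below 9 of its 10 neighbours on chromosome VII, whose median was -0.12, and the neighbours' median was -0.07. For RNR1, RNR2, RNR3, RFX1 and DUN1 the neighbours' medians ran from -0.28 (DUN1) to 0.62 (RNR2), and each member lay inside the range of its neighbours.

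The regulators proper were weakly expressed. RFX1 had 11.5 and 19.4 FPKM in the MF02 columns against 5.09 and 7.68 in the UV02_HG columns, without overlap. It was 2.23-fold lower (1.44 to 3.35), but at 0.41 relative to length it was higher than 133 of its 200 length neighbours. RFX1 was thus lower in UV02_HG, but less so than most genes of about its length. Its length-relative value ran from -0.23 to 0.78 over the column pairings. DUN1 had 7.10 and 15.5 FPKM in the MF02 columns against 5.29 and 5.77 in the UV02_HG columns. DUN1 was 1.88-fold lower (1.2 to 2.62), but at 0.76 relative to length its ratio was higher than that of 151 of its 200 length neighbours.

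By level, the order in MF02 was SML1 (mean 1562 FPKM), RNR4 (318), RNR2 (175), HUG1 (54.1), RFX1 (15.4), RNR1 (12.7), DUN1 (11.3) and RNR3 (3.93). RFX1 exceeded DUN1 in both MF02 columns, while RNR1 was below both in column 1 and above both in column 2, so its place is not fixed. In UV02_HG the order was SML1 (2504), HUG1 (130), RNR4 (64.7), RNR2 (55.3), RFX1 (6.38), DUN1 (5.53), RNR1 (2.85) and RNR3 (2.07). Here RNR4 and RNR2 changed places between the columns, and so did RFX1 and DUN1. The place of HUG1 is the main difference, below both small subunit genes in MF02 and above both in UV02_HG, in every column. HUG1 is much shorter than either, and its ratio relative to length was 0.00. The part of the length trend in that change of place was not tested.

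Genes with the most similar course over the 4 columns were sought among 5000 others with at least 10 FPKM in either strain, by Euclidean distance of log2(FPKM + 1) centred on each gene. Nearest to RNR1 were EMW1 (distance 0.0512) and HRQ1, a helicase gene (0.0801). RNR2 was nearest to AGP2, a plasma membrane transporter and regulator gene (0.0971), and GRH1 (0.104). RNR4 had YNL335W (0.111), a DNA damage-responsive gene that R64 calls DDI2, and FMP40 (0.163). RNR3 had SEF1 (0.0259) and MNS1, a mannosidase gene (0.0467), among 5001 candidates. HUG1 had OAZ1, the antizyme gene (0.0491), and OST4, a subunit gene of oligosaccharyltransferase (0.0970). With 4 columns from 2 samples, such likeness describes the columns only.

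Regulators of where and how the enzyme works were next compared. Counts in each list below are to be read against all features, of which 47.2% were at least 2-fold lower and 14.7% higher, while relative to length 16.8% of the genes with a coding length were lower and 17.1% higher. A fold is followed by its range over the pairings of single columns. A length-relative value is that of the strain means. It can fall under 2-fold in single pairings, and its range is given for some genes where it does. Among 10 genes for localisation, activity and the iron cofactor, 5 passed 2-fold on the low side and 2 on the high side, with a median log2 ratio of -0.93. Relative to length 2 were lower and 1 higher, with a median of 0.10. WTM1, the nuclear anchor of the Rnr2-Rnr4 pair, had 395 and 311 FPKM in the MF02 columns against 33.1 and 59.3 in the UV02_HG columns. The WTM1 deficit was 7.50-fold (5.17 to 11.6, and -1.48 relative to length, range -2.69 to -0.50). WTM2, named after its values were seen, was 1.39-fold lower (1.11 to 1.68) and at 0.86 relative to length. IXR1, an HMG-box protein gene needed for RNR1 expression, was 6.79-fold lower (4.999 to 10.04, and -1.31 relative to length, range -2.13 to -0.73). GRX4, a monothiol glutaredoxin that delivers iron, went the other way with 50.9 and 37.6 FPKM in the MF02 columns against 218 and 185 in the UV02_HG columns. It was 4.47-fold higher (3.58 to 5.67) and 2.57 higher in log2 relative to length, the largest positive value of all the genes in these lists. GRX3, also named after its values were seen, did not share that rise. It had 200 and 219 FPKM in the MF02 columns against 163 and 114 in the UV02_HG columns. GRX3 was 1.51-fold lower (1.23 to 1.91, and -0.05 relative to length). DIF1, named after its values were seen because its protein imports the small subunit into the nucleus and is, like Sml1, a target of Dun1, was 3.003-fold higher (1.88 to 5.37) and at 0.93 relative to length.

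Of 8 genes for repressors and corepressors of the RNR genes, 6 (75%, against 47.2% of all features) passed 2-fold on the low side and 0 on the high side, with a median of -2.04. Relative to length the list split, with 4 lower, 2 higher and a median of -0.75. ROX1, a repressor of hypoxic genes, had 23.3 and 74.1 FPKM in the MF02 columns against 3.68 and 4.43 in the UV02_HG columns (9.83-fold lower, 4.47 to 16.04, and -2.20 relative to length). ASF1, a histone chaperone gene, was 4.87-fold lower (1.78 to 8.86, and -1.52 relative to length), though its length-relative value reached -0.05 in 1 column comparison. MOT3, another repressor gene, overlapped between strains (log2 ratio 0.22) and stood at 1.67 relative to length. The Rfx1 partners were added after their values were seen. TUP1 stood at 92.7 and 212 FPKM in the MF02 columns against 13.9 and 21.0 in the UV02_HG columns, 8.32-fold lower (4.25 to 14.3, and -1.51 relative to length). CYC8 stood at 26.6 and 59.3 against 9.70 and 13.8 FPKM, 3.45-fold lower (-0.25 relative to length), with a range of 1.87 to 5.63 that falls under 2-fold in at least 1 pairing.

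Upstream, the checkpoint genes were weakly expressed, none above 23.1 FPKM in any column. Of 14 kinases, sensors and mediators 6 were at least 2-fold lower (42.9%, near the 47.2% of all features) and 0 higher (median -0.80). Relative to length 0 were lower and 4 higher, with a median of 0.59. CHK1, an effector kinase gene, had 15.98 and 21.5 FPKM in the MF02 columns against 23.1 and 14.8 in the UV02_HG columns. The clamp genes RAD17 and MEC3 overlapped between strains as well, and the 3 stood at 1.62, 1.54 and 1.17 relative to length. MEC1 (log2 ratio -0.55) and RAD53 (-0.71) were named after their values were seen, as the kinases above Dun1, and had 0.99 and 0.85 relative to length. MEC1 did not exceed 3.12 FPKM and RAD53 did not exceed 4.07 FPKM in any column, levels at which the pseudocount weighs on the ratio. It weighs on the list as well. With a pseudocount of 0.1 the list's median log2 ratio was -1.18, while the median of all features moved by -0.08. The part of the pseudocount in the list's length-relative median and counts was not tested.

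Of 8 genes for the MBF and SBF factors and their repressors, 3 were lower by 2-fold or more and 0 higher (median -0.35). Relative to length 0 were lower and 3 higher, with a median of 0.56. SWI4, the DNA-binding part of SBF, had 7.29 and 10.9 FPKM in the MF02 columns against 11.99 and 14.1 in the UV02_HG columns, a log2 ratio of 0.48 in a gene of 3282 nt (2.16 relative to length). NRM1, the repressor of MBF, had a log2 ratio of 0.66 (1.2 relative to length), and YOX1, a homeodomain repressor gene, had -0.03 (1.35 relative to length). The MBF genes MBP1 and SWI6 were named after their values were seen, and went lower. MBP1 was 5.42-fold lower (2.15 to 9.63, and -0.97 relative to length). SWI6 was 3.16-fold lower (1.36 to 5.79, and -0.10 relative to length).

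**Figure D4:**
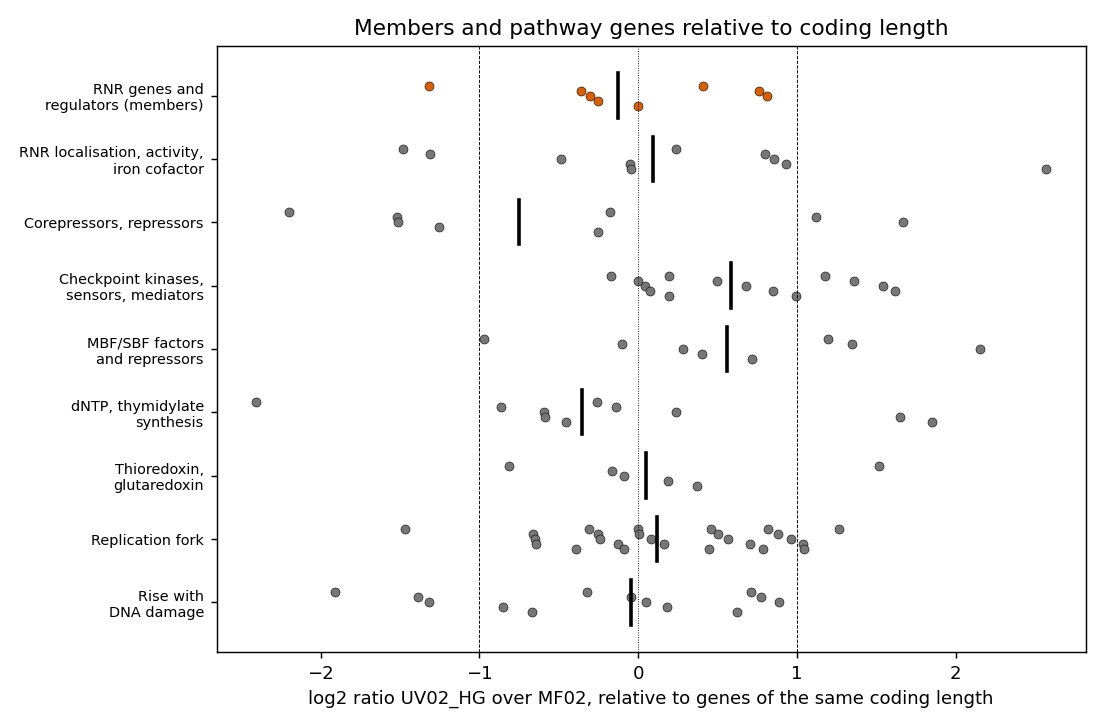
Log2 ratio of UV02_HG over MF02 as the difference from genes of like length, for the 8 members (orange) and each list of pathway genes (grey), with a black bar at each median and dashed lines at 2-fold. The members centre on -0.13, the repressors and corepressors on -0.75 and the checkpoint genes on 0.59. All values use the pseudocount of 1 FPKM, which weighs on weak genes such as the checkpoint genes.

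Other enzymes of deoxyribonucleotide supply parted by gene. Of 10, 3 were at least 2-fold lower and 2 higher, with a median of -0.33, and relative to length 1 was lower and 2 higher, with a median of -0.36. DFR1, the dihydrofolate reductase gene, had 49.5 and 98.0 FPKM in the MF02 columns against 12.6 and 13.4 in the UV02_HG columns (5.35-fold lower, 3.51 to 7.30, and -2.41 relative to length). DUT1, the dUTP pyrophosphatase gene, had 247 and 59.0 FPKM in the MF02 columns against 735 and 630 in the UV02_HG columns (4.43-fold higher, 2.54 to 12.3, and 1.65 relative to length). CDC8, the thymidylate kinase gene, was 3.04-fold higher (2.002 to 4.24, and 1.85 relative to length). In these 3 genes the strains did not overlap and the sign was the same with and without the length adjustment.

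Electron donors of the enzyme had 1 of 6 genes at least 2-fold lower and 2 higher (median 0.64), and 0 lower and 1 higher relative to length (median 0.05). GLR1, glutathione reductase, was 4.49-fold lower (2.95 to 6.32, and -0.81 relative to length). TRX2, a thioredoxin gene of 315 nt, was 2.56-fold higher (1.74 to 4.48) but at 0.37 relative to length. TRR1, thioredoxin reductase, had 646 and 390 FPKM in the MF02 columns against 1051 and 348 in the UV02_HG columns, which overlap, and 1.52 relative to length. The length-relative value of TRR1 ran from 0.14 to 2.57 over the column pairings.

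Among 26 replication fork genes, 12 passed 2-fold on the low side and 1 on the high side (median -0.99), and relative to length 1 was lower and 3 higher (median 0.12). RFC1, the large subunit of the clamp loader, stood at 6.65 and 28.8 FPKM in the MF02 columns against 1.73 and 1.19 in the UV02_HG columns. It was 7.61-fold lower, from 2.80-fold with MF02 column 1 to 13.6-fold with column 2 (-1.47 relative to length, range -1.89 to -0.75). PRI2, a primase subunit gene, had a log2 ratio of -0.34 (1.26 relative to length) and MCM5, a helicase subunit gene, had -0.76 (0.88 relative to length). Genes known to rise with DNA damage, of which 13 of 14 were kept, had 9 at least 2-fold lower (69.2%, against 47.2% of all features) and 0 higher (median -1.41). Relative to length 3 were lower and 0 higher, and the median of -0.04 was close to that of all genes. YNL335W (DDI2 in R64) was 4.49-fold lower (3.73 to 5.35, and -1.91 relative to length), and its near-identical copy YFL061W was listed at 0 in all columns, so their reads may not be told apart. RAD23, a repair factor gene, was 6.86-fold lower (4.89 to 8.97, and -1.38 relative to length). RAD2, a repair nuclease gene, stood at 14.5 and 58.7 FPKM in the MF02 columns against 3.38 and 4.61 in the UV02_HG columns. It was 7.53-fold lower, with a range of 2.77 to 13.6 that depends mostly on the MF02 column (-1.31 relative to length, range -1.57 to -0.78). Over the 8 lists 45 of 95 genes (47.4%) passed 2-fold on the low side, near the 47.2% of all features. On the high side 7 (7.37%) passed, a smaller share than the 14.7% of all features, without allowance for gene length. Relative to length 11 of the 95 were lower and 16 higher, where 16.8% and 17.1% of the genes with a coding length were. The median was -0.96 as deposited and 0.08 relative to length.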

How the data were processed

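The labels list 1 RNA sample for each strain. Trizol extraction and a NEBNext Ultra library kit are named in the labels' protocols, and HTSeq 0.6.1, TopHat2 2.0.12 and Bowtie2 2.2.3 in the submitters' processing notes. Neither the genome build nor the annotation or strand setting is given in the sources used. The authors deposited FPKM values for 7163 features, in 2 columns per strain, per the file headers.

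Symbols, coding lengths, gene order and promoter letters came from R64 (6045 features matched, 6010 with a coding length). FPKM times coding length gave whole reads within 0.02 for at least 99.8% of genes above 0 in each column, so nearly all gene models have the R64 lengths. R64 coordinates refer to the reference alone. Ratios used a pseudocount of 1 FPKM and a filter of 1 FPKM in either strain. Length-relative values subtract the median ratio of a gene and its 200 nearest in coding length. The method was tested on simulated data in which both columns of a strain shared the same length trend. That test does not cover a length trend between columns, such as that between the MF02 columns here. The design text speaks of duplicates, which the labels do not list as separate samples, and no test was run over the columns.

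The members, the lists and the length adjustment were chosen with earlier results of these data known. Named genes are the members, up to 3 genes per list with the largest length-relative value in size (at least 10 FPKM in either strain), the 2 genes most like each RNR gene and HUG1, and the neighbours of HUG1 and SML1. DIF1, WTM2, GRX3, TUP1, CYC8, MEC1, RAD53, MBP1 and SWI6 were named after their values were seen. Alternatives were pseudocounts of 0.1 and 5, rescaling to equal totals, upper quartile, median centring, trimmed mean of M values (trims of 30% and 5%), single columns, other filters, a 1.5-fold threshold and windows of 101 and 401 genes. The work used Python 3.11.15 with scipy 1.17.1, numpy 2.4.6, matplotlib 3.10.9 and pandas 2.3.3.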

Additional observations from a re-analysis of the deposited data

How the results depend on the processing

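RNR4 was at least 2-fold lower under all 11 alternatives for the strain ratio, and below genes of its length under all 9 for the length-relative value. The counts of 4 members lower and 1 higher depended on the scaling, the pseudocount and the columns. Equal totals gave 6 lower and 0 higher, upper quartile and trimmed mean of M values gave 2 lower and 2 higher, and median centring gave 1 lower and 2 higher. A pseudocount of 0.1 gave 5 lower and one of 5 gave 3 lower, each with 1 higher. MF02 column 1 alone gave 2 lower and 0 higher, and MF02 column 2 alone gave 5 lower and 2 higher. UV02_HG column 1 alone gave 4 lower and 2 higher, and UV02_HG column 2 alone gave 3 lower and 1 higher. The length adjustment gave 1 lower and 0 higher.

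As log2 ratios, RFX1 was -0.84 with a pseudocount of 5 and DUN1 -1.02 with one of 0.1. The pseudocount also weighs on the weak genes RNR1 and RNR3. RNR1 was -2.11 with a pseudocount of 0.1 and -1.17 with one of 5, and RNR3 was -0.90 and -0.34. Equal totals gave RNR3 -1.21, SML1 -0.31, HUG1 0.20 and DUN1 -1.78. Upper quartile gave RNR2 -0.99, SML1 1.31 and RFX1 -0.50. Centring gave RNR1 -0.94, RNR3 0.21, RNR2 -0.75, SML1 1.57 and RFX1 -0.26. Trimmed mean of M values gave RNR2 -0.87, SML1 1.35 and RFX1 -0.35. MF02 column 1 alone gave RNR1 -0.66, HUG1 0.87 and RFX1 -0.76. MF02 column 2 alone gave SML1 1.92 and DUN1 -1.34, UV02_HG column 1 gave SML1 1.03 and UV02_HG column 2 gave RFX1 -0.92. The length adjustment gave RNR1 -0.36, RNR3 0.81, RNR2 -0.25, SML1 -0.30, HUG1 0.00, RFX1 0.41 and DUN1 0.76. These scalings moved the median of all features by -0.93, 0.65, 0.89 and 0.77 in that order, and by 0.89 for length.

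Length-relative values moved with the columns. MF02 column 1 gave RNR1 0.00112, and UV02_HG column 1 gave SML1 0.12 and UV02_HG column 2 RNR2 0.0946. In the other direction, RNR2 was -0.87 with MF02 column 1 alone and -0.71 with UV02_HG column 1 alone. MF02 column 2 gave RNR3 1.25, RNR2 0.25, RNR4 -0.85 and SML1 0.67, hence 0 members below and 1 above 2-fold. Log2 changes of ratios within a column, over single columns, were -0.21 and 0.0797 against MF02 column 1 for RNR3/RNR1 (1.22 over means). HUG1/SML1 (0.58) gave -0.64 for UV02_HG column 1 over MF02 column 2 and 1.46 for UV02_HG column 2 over MF02 column 1. Small over large subunit (-0.28) gave -1.60 and -1.18 against MF02 column 1 and 0.26 and 0.69 against MF02 column 2. The cause was not tested, beyond what the construction of each alternative shows.

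Of pathway genes, 45 lower and 7 higher became 78 and 2 with equal totals, 27 and 13 with upper quartile, 19 and 15 with centring, 22 and 15 with trimmed mean of M values, and 11 and 16 relative to length, and 28 were lower with MF02 column 1 alone. A window choice added after seeing the data, length neighbours of at least 10 FPKM, changed no call of the 7 members it holds, RNR3 being too weak. No paired analysis was possible because the labels list 1 sample per strain and do not say whether the columns, duplicates by the design text, are separate cultures or pair across strains. Depth limits RNR3, RNR1 and DUN1 most, with 62, 97 and 102 reads in their lowest columns.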
